A study of Mus musculus with 32 samples.

Results

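The 29 genes described here encode enzymes and regulators of cholesterol and fatty acid synthesis, and they were taken by gene symbol from the 31053 genes of the count tables. They fall into 16 enzymes of the sterol arm, 4 regulators or sterol transport genes (*Insig1*, *Srebf1*, *Srebf2* and *Stard4*), and 9 enzymes of the fatty acid arm. All were measured by scRNA-seq in droplets, with the 10x Single Cell 3' v2 chemistry, in BMSC-OBs, stromal cells of bone marrow that were driven towards osteoblasts in culture, from 77 Diversity Outbred (DO) mice, an outbred population that descends from several inbred founder strains. Marrow came from the femur, and every culture received the same medium with serum, ascorbic acid, β-glycerophosphate and dexamethasone, so no untreated group exists. Cells of 4 or 5 mice were combined in each of 16 pools, and a pool is the replicate throughout. The labels give neither age nor sex. A level in a pool mixes its mice, and a mouse that gave more cells of a type weighs more in it. Each pool was sequenced in 2 runs. Of the barcodes of the first run, 98.2% were shared with the second over all pools, and 84.5% in the lowest pool. The first run was therefore used, and the second served as an alternative.

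Cholesterol is built from acetyl-CoA through the mevalonate pathway. HMG-CoA synthase (*Hmgcs1*) and the mevalonate kinases lead to isoprenoids, farnesyl diphosphate synthase (*Fdps*) and squalene synthase (*Fdft1*) lead to squalene, and squalene epoxidase (*Sqle*), lanosterol synthase (*Lss*) and a series of demethylases and reductases complete the sterol. Fatty acids start from the same acetyl-CoA, released from citrate by ATP citrate lyase (*Acly*), carboxylated by acetyl-CoA carboxylase (*Acaca*), assembled by fatty acid synthase (*Fasn*) with NADPH that malic enzyme (*Me1*) can supply, and then elongated and desaturated. Sterol regulatory element-binding proteins (SREBPs, encoded by *Srebf1* and *Srebf2*) activate both arms, and INSIG proteins hold SREBPs in the endoplasmic reticulum when sterols are plentiful. In marrow, adipogenic cells make and store fatty acids as triglyceride, whereas macrophages also take up and export cholesterol.

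Of 107853 barcodes, 88909 passed the cell filters, and 51630 of these (58.1%) were assigned by a marker score to 1 of 4 classes: 6972 marrow adipogenic lineage progenitor (MALP)-like cells, 9968 late mesenchymal progenitor (LMP)-like cells, 23637 osteoblast (OB)-like cells and 11053 macrophage (MF)-like cells. The score is the mean scaled expression of a class's markers, and a cell entered a class at a score of at least 0.4 with a lead of at least 0.15 over every other class. Each class is thus a range of a score, not a cluster. Within 0.05 of the limit lay 840 MALP-like cells above and 855 cells below it, against 1880 and 2195 for LMP-like, 4878 and 4459 for OB-like, and 1276 and 1292 for MF-like cells. The median score for the other classes did not exceed 0.190 in any class (the LMP score of MALP-like cells). No doublet caller was run. The 8138 cells that reached 0.4 without the lead of 0.15 were left out, and 34715 cells in all stayed unassigned. A further 2564 cells were assigned to T, B, granulocyte, endothelial or osteoclast-like classes and are not described here. Every pool held every class, with at least 177 MALP-like, 238 LMP-like, 435 OB-like and 262 MF-like cells. The sums of the markers that defined each class describe the gate and are no check of its name, since cells were chosen on them. In counts per library total (CPM, explained with the levels below), the 10 MALP markers made up 30504 to 37847 CPM against at most 3712 in any pool of another class, the 8 LMP markers 10889.9 to 15119 CPM against at most 2984 in any pool of another class, the 12 OB markers 78268 to 123273 CPM against at most 14949 in any pool of another class and the 12 MF markers 20156 to 33990.5 CPM against at most 875 in any pool of another class. Depth differed between classes, with medians of 8914, 17462, 17600.0 and 4712 unique molecular identifiers (UMIs) per cell in the same order. It also differed between pools of a class, whose medians ran from 6793 to 11908, 5240.5 to 24520, 3737.5 to 30115 and 2391 to 7638 UMIs. The share of UMIs from free RNA had medians of 19.4%, 13.6%, 12.7% and 5.48%. It was estimated from genes of another class, relative to the summed profile of all barcodes of the pool. That profile comes mostly from cells, not from empty droplets, so doublets and misassigned cells also count in the share. Across pools, 1.43% of barcode sequences occurred in more than 1 pool.

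Promoters are shown because several members varied together between pools, as described further on. RefSeq (GRCm38.p6) promoters were at hand for 22 of the 29 members. The 8-base core of the sterol regulatory element, TCACNCCA, was searched on both strands together with CCAAT, the box bound by NF-Y. A TCACNCCA followed by AT also holds CCAAT, but in no member did matches to the 2 motifs overlap. Over windows from 250 bases before to 50 bases after the start, TCACNCCA was held by 4.36% of all 32851 promoters and CCAAT by 37.4%. Counted per gene, as the members are, the shares were 4.97% and 41.1% of 27025 genes. Among the 22 members, TCACNCCA was found for 3, namely *Hmgcs1*, *Msmo1* and *Srebf2*, and CCAAT for 18. By arm, CCAAT was found for 12 of 13 sterol enzymes, 3 of 3 regulators and 3 of 6 fatty acid enzymes. A match describes these letters only, and a window without one says nothing of SREBP binding. The 250 bases upstream of the start are shown for the 3 members with TCACNCCA, whose transcripts are followed below, and for *Fasn*, the other gene against which pools were compared. Capitals mark both motifs on either strand.
Hmgcs1 (chr13:119690101-119690350, plus strand): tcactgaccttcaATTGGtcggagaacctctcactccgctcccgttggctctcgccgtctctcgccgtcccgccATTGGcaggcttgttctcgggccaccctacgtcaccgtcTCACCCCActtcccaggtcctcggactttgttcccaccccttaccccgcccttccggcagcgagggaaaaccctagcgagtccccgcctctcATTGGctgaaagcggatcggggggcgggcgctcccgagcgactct
Msmo1 (chr8:64733579-64733828, minus strand): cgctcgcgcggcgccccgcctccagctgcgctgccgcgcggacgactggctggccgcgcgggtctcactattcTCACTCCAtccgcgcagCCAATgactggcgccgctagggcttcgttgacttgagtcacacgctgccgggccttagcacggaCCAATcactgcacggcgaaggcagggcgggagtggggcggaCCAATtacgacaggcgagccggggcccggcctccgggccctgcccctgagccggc
Srebf2 (chr15:82147019-82147268, plus strand): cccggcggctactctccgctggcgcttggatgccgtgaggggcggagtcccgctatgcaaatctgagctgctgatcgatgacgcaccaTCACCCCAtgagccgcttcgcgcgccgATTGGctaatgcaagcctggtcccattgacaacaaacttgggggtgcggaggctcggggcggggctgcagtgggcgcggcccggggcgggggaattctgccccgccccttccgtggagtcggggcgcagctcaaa
Fasn (chr11:120824548-120824797, minus strand): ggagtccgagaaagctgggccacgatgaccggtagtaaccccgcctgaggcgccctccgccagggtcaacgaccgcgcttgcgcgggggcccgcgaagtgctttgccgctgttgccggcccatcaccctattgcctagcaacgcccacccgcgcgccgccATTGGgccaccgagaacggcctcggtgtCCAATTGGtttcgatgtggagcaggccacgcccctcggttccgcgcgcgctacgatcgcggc
The TCACNCCA match began 137 bases before the start in *Hmgcs1*, 177 in *Msmo1* and 162 in *Srebf2*, each on the gene's own strand, and the *Fasn* window held CCAAT 3 times, of which 2 matches on opposite strands overlapped.

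Levels were expressed as CPM, which scales the UMIs summed over the cells of a class in a pool to a common total, and adjusted across all 64 class and pool libraries by the trimmed mean of M-values (TMM). On this scale, OB-like cells had the highest mean level for 12 of 16 sterol enzymes and 3 of 4 regulators, and MF-like cells had the lowest for 12 sterol enzymes. In the fatty acid arm, MALP-like cells were highest by the mean for 4 of 9 enzymes, OB-like for 3 and MF-like for 2. Some of these places were not clear leads. The median of *Fasn* was 28.7 CPM in MALP-like and 36.6 in OB-like cells, and that of *Elovl6* 10.8 in MALP-like and 12.6 in LMP-like cells. Among the regulators, *Stard4* had means of 13.95 CPM in OB-like and 13.90 in LMP-like cells. The order of classes was not counted over all genes, so these counts stand without a background. Added together as a description, the sterol enzymes reached a median of 534 CPM over the pools of OB-like cells (387 to 655), 386 in LMP-like (351 to 454), 329 in MALP-like (255 to 405) and 243 in MF-like cells (200.1 to 354). The fatty acid sum had another order, with 1593 CPM in MALP-like, 1018 in OB-like, 445 in LMP-like and 181 in MF-like cells. Without *Scd1*, a stearoyl-CoA desaturase abundant in fat tissue, the fatty acid sum of MALP-like cells was 318 CPM, below the 401 of LMP-like and the 875 of OB-like cells. Without *Scd2* as well, MALP-like and LMP-like cells were close, with 193 and 200.4 CPM, and OB-like cells had 309.8. The place of OB-like cells rests in part on the TMM scaling. With library totals, they were highest for 4 and MALP-like cells for 7 of the 16 sterol enzymes, OB-like cells were highest for 1 of 4 regulators, and MF-like cells were lowest for 11 sterol enzymes. The sterol sums then had medians of 441 CPM in OB-like, 419 in LMP-like, 411 in MALP-like and 245 in MF-like cells, and the ranges of the first 3 overlapped. The fatty acid sum kept its order with library totals. Without *Scd1* it was then 403 CPM in MALP-like, 401 in LMP-like and 712 in OB-like cells, and without both desaturases 257, 211 and 257.

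**Figure D1:**
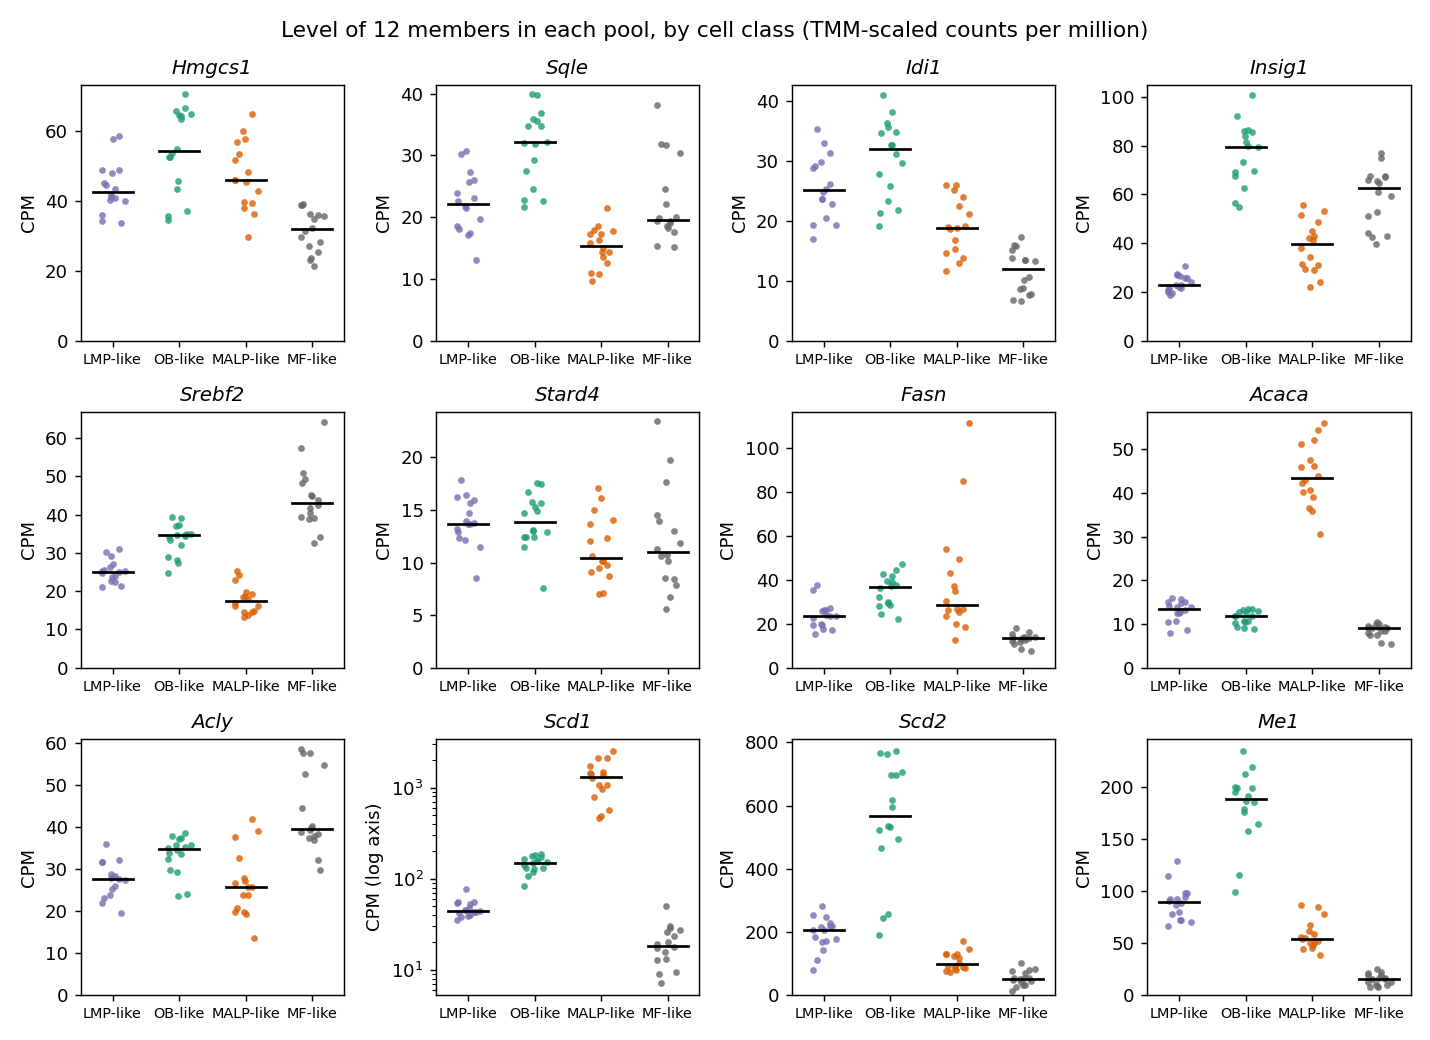
Each point is 1 of 16 pools, the y axis is the TMM-scaled level in CPM (a log axis for Scd1), and the black line is the median of the class. MALP-like cells stand apart from the other classes for Scd1 and Acaca, OB-like cells are highest for Scd2, Me1 and Insig1, and 2 MALP-like pools lie above all others for Fasn.

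Classes were compared with the quasi-likelihood test of edgeR, in which each pool formed a block. Adjustment was by Benjamini-Hochberg over all tested genes, with each comparison in a fit of its own. Values after ± are standard errors of the log2 fold change unless they follow a CPM, where they are SDs. These standard errors were derived from the fold change and the F statistic of the test, and are not independent of its p-value. The classes compared were defined by their markers, so most genes differ between them, and the counts of members are given beside the share of all genes called. Fewer members were called when the study's limits were set on UMI counts, which gave 16349 assigned cells. In that setting 6 were higher and 0 lower in OB-like against LMP-like, 3 and 2 in MALP-like against LMP-like, 3 and 6 in MALP-like against OB-like, and 2 and 11 in MF-like against LMP-like cells. Fewer genes were tested there as well, 4232, 4236, 5243 and 7397 in the same order. Of these, 47.9%, 52.2%, 63.0% and 71.5% were called. A member that did not pass the filter in that setting could not be called.

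OB-like cells stand for the mineralizing lineage, with 12 markers that include *Sp7*, *Alpl*, *Dmp1*, *Mepe* and *Phex*. Osteoblast progenitors, osteoblasts and osteocyte-like cells, which the paper separates, were not told apart in them. With library totals, *Dmp1*, *Mepe* and *Phex* did not overlap between OB-like and LMP-like pools, but *Sp7* and *Alpl* did. *Sp7* had medians of 143 and 125 CPM, and *Alpl* of 1518 and 1175. *Ibsp*, the most abundant of the 12 markers in OB-like cells, had medians of 79317 and 9470 CPM, so LMP-like cells also carried transcripts of osteoblast markers. On the TMM scale, OB-like cells carried more transcript of most members than LMP-like progenitors did. *Insig1* was 3.18 times higher, the desaturases *Scd1*, *Scd2* and *Fads2* were 3.01, 2.72 and 2.21 times higher, and *Me1* was 1.99 times higher. Of the 29 members, 23 were called higher and 5 lower, whereas 80.1% of the 12677 genes tested were called in either direction, 40.6% higher and 39.6% lower. The median log2 fold change of the members was 0.37, beside 0.014 over all genes. This count depends on the scaling: with library totals in place of TMM, the median of all genes moved by -0.38, the share of calls that were higher fell from 50.6% to 24.3%, and 10 of the 23 members had a negative estimate, namely *Hmgcs1*, *Idi1*, *Fdft1*, *Lss*, *Msmo1*, *Hsd17b7*, *Mvd*, *Srebf2*, *Acly* and *Fads1*. The other 13 kept a positive one, and 10 members were called higher and 10 lower. The 12 osteoblast markers alone made up 78268 to 123273 CPM of OB-like cells before scaling and 4687 to 14949 of LMP-like cells, and their part in that shift was not tested.

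Among the sterol enzymes, 13 of 16 were higher in OB-like cells. *Dhcr7*, the last reductase before cholesterol, had a median of 14.3 CPM (8.58 to 19.9) in OB-like and 7.14 CPM (4.64 to 10.9) in LMP-like pools. It was higher in all 16 pools, and the ranges overlapped, with a log2 fold change of 0.96 ± 0.070 (adjusted p = 8.10e-11). *Fdps*, which makes the farnesyl unit, stood at 83.2 CPM (55.3 to 137) against 46.8 CPM (31.2 to 67.8) and was also higher in 16 of 16 pools, at 0.84 ± 0.084 (adjusted p = 1.10e-08). *Cyp51*, the lanosterol demethylase, followed with 0.62 ± 0.074 (adjusted p = 1.45e-07) in 14 of 16 pools. For *Sqle*, the levels were 32.1 CPM (21.7 to 39.9) and 22.2 CPM (13 to 30.7), with a difference of 0.47 ± 0.071 (adjusted p = 4.52e-06). *Hmgcs1*, near the start of the pathway, differed less. It stood at 54.3 CPM (34.6 to 70.8) and 42.6 CPM (33.6 to 58.6), largely overlapping ranges, with 0.26 ± 0.060 (adjusted p = 5.05e-04) and 13 of 16 pools higher. *Idi1*, the isopentenyl isomerase, reached 31.9 CPM (19.2 to 41) against 25.1 CPM (17 to 35.4), a difference of 0.21 ± 0.059 (adjusted p = 0.00263). Both of these reversed with library totals, to -0.12 and -0.17. The other 3 enzymes were lower in OB-like cells: *Acat2*, the cytosolic acetoacetyl-CoA thiolase, with -0.58 ± 0.074 (adjusted p = 4.23e-07), *Nsdhl*, a sterol dehydrogenase, with -0.51 ± 0.071 (adjusted p = 1.25e-06), and *Mvk*, mevalonate kinase, with -0.22 ± 0.041 (adjusted p = 5.40e-05), each in at least 15 of 16 pools. The remaining enzymes that were higher, *Mvd*, *Hsd17b7*, *Msmo1*, *Lss*, *Fdft1*, *Sc5d* and *Pmvk*, lay between 0.20 and 0.52.

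Of the regulators, *Insig1* separated the classes fully. The 16 pools of OB-like cells held 79.7 CPM (54.9 to 101) and those of LMP-like cells 22.9 CPM (18.8 to 30.7), so the lowest OB-like pool exceeded the highest LMP-like pool, and the log2 fold change was 1.67 ± 0.060 (adjusted p = 8.30e-16). Such a gap between ranges was found for 15.7% of all tested genes and for 2 of the 29 members, the other being *Scd1*. *Srebf1*, at 32 CPM (24 to 40.2) against 20.5 CPM (13.4 to 25.2), was 0.65 ± 0.060 (adjusted p = 3.71e-09) higher, in 16 of 16 pools. *Srebf2* stood at 34.6 CPM (24.8 to 39.3) against 25.1 CPM (21.2 to 31), a difference of 0.37 ± 0.050 (adjusted p = 9.44e-07) that was -0.010 with library totals. *Stard4*, a sterol carrier of the cytosol, was not called, at 13.9 CPM (7.59 to 17.6) and 13.7 CPM (8.57 to 17.9) with -0.029 ± 0.053 (adjusted p = 0.650).

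In the fatty acid arm 7 of 9 enzymes were higher in OB-like cells, led by the desaturases *Scd1*, *Scd2* and *Fads2*, while the desaturase *Fads1* had the smallest positive change. *Scd1* stood at 149.8 CPM (84.2 to 189) in OB-like and 44.5 CPM (35.2 to 77.5) in LMP-like pools, without overlap, and differed by 1.59 ± 0.081 (adjusted p = 2.02e-13). *Scd2*, its paralog, reached 566 CPM (189 to 772) against 204 CPM (79.6 to 282). It was higher in 15 of 16 pools, the lowest OB-like pools reaching into the LMP-like range, and differed by 1.44 ± 0.12 (adjusted p = 3.72e-10). *Fads2*, the delta-6 desaturase, was 1.14 ± 0.12 (adjusted p = 1.24e-08) higher at a low level of 5.39 CPM (2.21 to 7.37). *Me1* was higher in every pool, at 189 CPM (98.6 to 234) against 89.3 CPM (65.8 to 129), with 0.99 ± 0.073 (adjusted p = 8.57e-11). *Fasn* stood at 36.6 CPM (22.1 to 47.3) and 23.4 CPM (15.5 to 37.8), a difference of 0.54 ± 0.067 (adjusted p = 2.97e-07) with 15 of 16 pools higher. *Acly* differed by 0.25 ± 0.045 (adjusted p = 3.16e-05) at 34.7 CPM (23.6 to 38.5) and 27.7 CPM (19.6 to 35.8). *Elovl6*, which elongates palmitate, and *Acaca* were lower, with -0.57 ± 0.10 (adjusted p = 3.48e-05) and -0.20 ± 0.058 (adjusted p = 0.00457). *Fads1* was called at 0.18 ± 0.079 (adjusted p = 0.0463) and lost the call in 11 of 16 choices of a pool left out.

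MALP-like cells, the adipogenic progenitors of marrow, differed from LMP-like cells in both directions. *Scd1* was 25.1 times higher and *Acaca* 3.37 times higher, while *Scd2* was 1.79 times and the sterol enzymes *Fdps*, *Msmo1* and *Cyp51* 2.35, 1.90 and 1.77 times lower. Of the 29 members, 9 were called higher and 15 lower, with 73.8% of 11865 tested genes called, 37.1% higher and 36.8% lower. The median log2 fold change was -0.32 for the 16 sterol enzymes and -0.079 for the 9 fatty acid enzymes, beside 0.013 over all genes. With library totals the median of all genes moved by 0.29, the higher share of calls went from 50.2% to 74.1%, and 13 of the 15 lower members kept a negative estimate, *Mvk* and *Fads1* being the exceptions. The members called were then 14 higher and 10 lower. *Adipoq*, *Lpl* and *Fabp4*, genes of fat cells, were among the 10 markers that define the class. A gate without them is therefore given beside the members whose sign or call it changed.

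*Scd1* showed the largest difference of all members. Its level was 1320.1 CPM (461 to 2527) in MALP-like and 44.5 CPM (35.2 to 77.5) in LMP-like pools, and the lowest MALP-like pool lay far above the highest LMP-like pool. The log2 fold change was 4.65 ± 0.19 (adjusted p = 3.20e-15), 3.76 with the gate that left out the fat cell genes and 5.88 after subtraction of free RNA. *Acaca*, the enzyme of the committed step of fatty acid synthesis, stood at 43.5 CPM (30.6 to 56) against 13.4 CPM (8.03 to 16), again without overlap, with 1.75 ± 0.057 (adjusted p = 1.00e-16). Gaps of this kind were found for 12.8% of tested genes and for 4 members, the others being *Cyp51* and *Mvd*, where MALP-like cells were lower.

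*Fasn* varied widely between pools of MALP-like cells. It ranged over 28.7 CPM (12.6 to 111), with pools 17 and 18 at 85 and 111 CPM and no other pool above 53.9, beside 23.4 CPM (15.5 to 37.8) in LMP-like cells. The difference was 0.57 ± 0.16 (adjusted p = 0.00338) and positive in 15 of 16 pools. Without pools 17 and 18, an alternative chosen after the values were seen, it was 0.34 (adjusted p = 0.00995). Pool 17 had the highest free RNA share of all libraries, 45.6%, against 10.2% to 30.8% in the 15 other pools of MALP-like cells, pool 18 among them at 17.7%. The difference was 0.64 (adjusted p = 0.00812) after subtraction of free RNA. With the gate that left out the fat cell genes it turned to -0.19 (adjusted p = 0.0763), so the direction for *Fasn* depended on how the class was drawn. *Acly* and *Elovl6* were not called, with -0.079 ± 0.070 (adjusted p = 0.321) and 0.018 ± 0.12 (adjusted p = 0.902). With the same gate *Acly* was called lower, at -0.19 (adjusted p = 0.00308).

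The other desaturases and *Me1* were lower in MALP-like cells. *Scd2* stood at 96.6 CPM (73.7 to 170.4) against 204 CPM (79.6 to 282), lower in 16 of 16 pools, with -0.84 ± 0.10 (adjusted p = 1.14e-07). *Fads2* held 0 to 8 UMIs per pool of MALP-like cells, 53 in all, against 6 to 54 per pool and 424 in all in LMP-like cells. The level that the filter asks for was reached in 14 LMP-like and 2 MALP-like pools, so its being among the lower members of this comparison is a description, and no fold is given. *Me1* was at 53.8 CPM (38.5 to 86.1) against 89.3 CPM (65.8 to 129), lower in 14 of 16 pools, with -0.62 ± 0.10 (adjusted p = 1.20e-05). *Fads1* was called at -0.15 ± 0.062 (adjusted p = 0.0360) and lost the call in 8 of 16 choices of a pool left out and with the gate without the fat cell genes, at -0.091 (adjusted p = 0.180).

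Within the sterol arm 9 enzymes were lower, 4 higher and 3 not called in MALP-like cells. *Fdps* led at 21.4 CPM (11.6 to 31.3) against 46.8 CPM (31.2 to 67.8), lower in 16 of 16 pools, with -1.23 ± 0.12 (adjusted p = 4.96e-09). *Msmo1*, a C4 methyl sterol oxidase, followed at 15.7 CPM (11.5 to 24.2) against 29 CPM (23.4 to 41.7), with -0.93 ± 0.091 (adjusted p = 7.61e-09). *Mvd*, which decarboxylates mevalonate diphosphate, was -0.83 ± 0.073 (adjusted p = 1.61e-09) and *Cyp51* -0.82 ± 0.076 (adjusted p = 2.95e-09), both lower in every pool. *Sqle* stood at 15.4 CPM (9.70 to 21.5) against 22.2 CPM (13 to 30.7), a difference of -0.57 ± 0.090 (adjusted p = 8.70e-06). *Idi1* stood at 18.9 CPM (11.6 to 26) against 25.1 CPM (17 to 35.4), with -0.45 ± 0.088 (adjusted p = 1.01e-04). *Lss* and *Nsdhl* were not called, with -0.18 ± 0.090 and -0.066 ± 0.074. *Hmgcs1* was not called either, at 46 CPM (29.7 to 64.8) and 42.6 CPM (33.6 to 58.6) with 0.080 ± 0.073 (adjusted p = 0.335). With the gate without the fat cell genes *Hmgcs1* was -0.054 (adjusted p = 0.499), and *Lss* was called lower, with -0.28 (adjusted p = 0.00913). *Acat2* was the most raised sterol enzyme, by 0.68 ± 0.073 (adjusted p = 3.91e-08) in 16 of 16 pools. Its neighbouring copy *Acat3* did not pass the filter on low counts, and reads shared between them could not be counted apart here. *Pmvk*, *Dhcr7* and *Hsd17b7* were higher by 0.35, 0.32 and 0.15, the last losing its call in 3 of 16 choices of a pool left out. The remaining lower enzymes, *Fdft1*, *Sc5d* and *Mvk*, lay between -0.60 and -0.25.

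Of the 4 regulators, 2 were higher and 2 lower. *Insig1* stood at 39.7 CPM (22 to 55.5) in MALP-like against 22.9 CPM (18.8 to 30.7) in LMP-like pools, higher in 14 of 16, with 0.68 ± 0.11 (adjusted p = 7.31e-06). With limits set on UMI counts, which gave 16349 assigned cells, its difference was -0.11 (adjusted p = 0.614). *Srebf1* was higher by 0.34 ± 0.090 (adjusted p = 0.00196) at 23.6 CPM (15.4 to 38.6) against 20.5 CPM (13.4 to 25.2), and was not called with the gate without the fat cell genes, at 0.12 (adjusted p = 0.193). *Srebf2* was lower, at 17.3 CPM (13.3 to 25.1) against 25.1 CPM (21.2 to 31), with -0.53 ± 0.070 (adjusted p = 7.82e-07) in 15 of 16 pools. *Stard4* was lower, with -0.33 ± 0.10 (adjusted p = 0.00720) at 10.4 CPM (6.99 to 17.1).

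Because the class is a range of a score, members were also followed along the MALP marker score (CPM with library totals, mean ± SD over 16 pools). The cells taken had OB and MF scores below 0.2 and their highest score for MALP or LMP. The LMP score was not limited and no lead was asked for. Low steps can therefore hold LMP-like cells, and the steps above 0.4 also hold cells outside the MALP-like class. *Scd1* stayed at 45.8 ± 14.2, 48.2 ± 16.6 and 72.5 ± 36.3 CPM in the 3 steps below the limit of 0.4, and stood at 782 ± 797, 1692 ± 1008, 1458 ± 618 and 908 ± 458 in the 4 steps above it. *Acaca* went from 14.1 ± 4.27 in the first step to 59.1 ± 13.2 in the last, and *Acat2* from 13.2 ± 3.27 to 36.1 ± 9.45. *Fasn* was 23.7 ± 7.20 CPM in the first step, 53.3 ± 57.4 and 56.9 ± 47.3 in the 2 steps just above the limit and 21.4 ± 8.45 in the last. The SD exceeded the mean in the first of these 2. *Hmgcs1* went from 37.9 ± 7.41 to 59.8 ± 12.5, and *Fdps* from 43.3 ± 14 to 22.9 ± 6.27. These levels are not on the TMM scale of the tests, where *Hmgcs1* was not called between MALP-like and LMP-like cells. Library totals moved the median of all genes by 0.29 in that comparison, and the part of the scale in the rises was not tested. Median depth per cell went from 16867 UMIs in the first step to 8938 in the last, and its part in these levels was not tested.

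**Figure D2:**
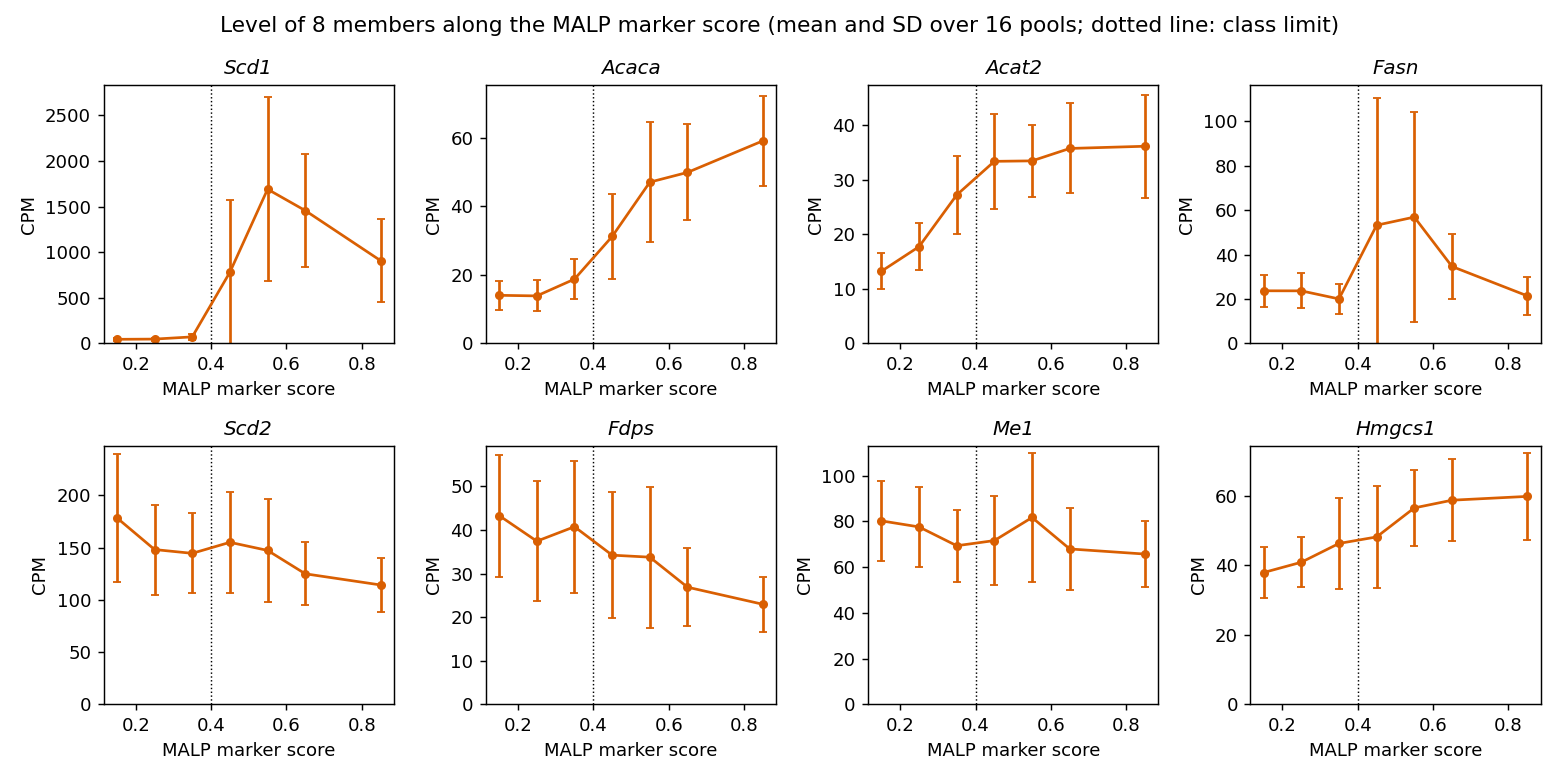
The x axis is the middle of each step of the MALP marker score, the y axis is the level in CPM with library totals (not TMM-scaled), and points and bars are the mean and SD over 16 pools. The dotted line marks the score limit of the class at 0.4, and the steps above it also hold cells outside the class. Scd1 and Fasn are highest in the middle steps, Acaca and Acat2 are highest in the last step, and Fdps and Scd2 are lowest there.

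Set against OB-like cells directly, MALP-like cells had lower levels of most members on the TMM scale, and with library totals 14 members were called higher and 11 lower. *Scd1* was 8.18 times, *Acaca* 3.84 times and *Acat2* 2.37 times higher, while *Scd2*, *Fdps* and *Me1* were 4.93, 4.29 and 3.12 times lower. Of the 29 members 5 were higher and 20 lower, with 79.2% of 12358 tested genes called, 39.1% higher and 40.2% lower, and a median of -0.54 over members beside -0.0066 over all genes. With library totals the median of all genes moved by 0.69 and the higher share of calls from 49.3% to 81.3%. Of the 20 lower members 12 kept a negative estimate, and *Idi1*, *Lss*, *Dhcr7*, *Pmvk*, *Srebf1*, *Stard4*, *Acly* and *Fads1* did not. This comparison shares its pools of MALP-like and OB-like cells with those against LMP-like cells.

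The paralogs *Scd1* and *Scd2* differed in opposite directions. *Scd1* was 3.03 ± 0.17 (adjusted p = 9.24e-13) higher in MALP-like than in OB-like cells, and *Scd2* was lower, with -2.30 ± 0.11 (adjusted p = 4.79e-14), each in 16 of 16 pools and without overlap of the classes, a gap that 24.7% of tested genes and 7 members showed. Chosen after the values were seen, the share of *Scd1* among the UMIs of both genes was 92.4% in MALP-like pools (84.5 to 95), 20.9% in OB-like (17.8 to 31.3), 19.3% in LMP-like (16.4 to 30.6) and 25% in MF-like pools (14.6 to 50.8). This share needs no scaling between libraries, and only in MALP-like pools did it exceed 50.8%. Both genes lie on chromosome 19, *Scd2* at 44293674-44306864 on the plus strand and *Scd1* at 44394455-44407879 on the minus strand (GRCm38).

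Among the other fatty acid genes, *Acaca* was 1.94 ± 0.061 (adjusted p = 3.99e-17) and *Elovl6* 0.61 ± 0.16 (adjusted p = 0.00173) higher in MALP-like cells, whereas *Me1* was lower, with -1.64 ± 0.13 (adjusted p = 1.28e-10). *Fads2*, counted among the 20 lower members and among the 7 without overlap, passed the filter only through OB-like cells, which held 29 to 197 UMIs per pool, and no fold is given for it. *Fads1* was lower, with -0.34 ± 0.10 (adjusted p = 0.00483). *Fasn* was not called, with -0.0030 ± 0.14 (adjusted p = 0.986), and estimates of -0.10 to 0.064 when 1 pool was left out. Leaving out 1 pool does not remove pools 17 and 18 together. These stood at 85 and 111 CPM in MALP-like and 44.3 and 47.3 in OB-like cells, while the medians over all pools were 28.7 and 36.6 CPM. Other pools differed in either direction. With the gate without the fat cell genes *Fasn* was called lower, with -0.75 (adjusted p = 8.48e-07). *Acly* was lower, with -0.35 ± 0.085 (adjusted p = 8.30e-04). In the sterol arm *Fdps* (-2.10 ± 0.10), *Cyp51* (-1.47 ± 0.10) and *Msmo1* (-1.27 ± 0.13) were lower in 16 of 16 pools, and the ranges of *Fdps* and *Cyp51* did not overlap. *Sqle* was lower, with -1.04 ± 0.090 (adjusted p = 9.13e-10) and *Idi1* with -0.69 ± 0.10 (adjusted p = 2.54e-06). *Hmgcs1*, *Hsd17b7* and *Mvk* were not called, *Hmgcs1* with -0.20 ± 0.10 (adjusted p = 0.0766), which was called with the gate without the fat cell genes, at -0.35 (adjusted p = 0.00398). The remaining lower enzymes, *Mvd*, *Fdft1*, *Sc5d*, *Dhcr7*, *Lss* and *Pmvk*, lay between -1.04 and -0.20. *Acat2* and *Nsdhl* were higher, by 1.24 ± 0.12 and 0.42 ± 0.10. All 4 regulators were lower: *Insig1* with -1.01 ± 0.10 (adjusted p = 4.79e-09), *Srebf2* with -0.92 ± 0.086 (adjusted p = 3.76e-09), and *Srebf1* and *Stard4* with -0.33 and -0.32.

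**Figure D3:**
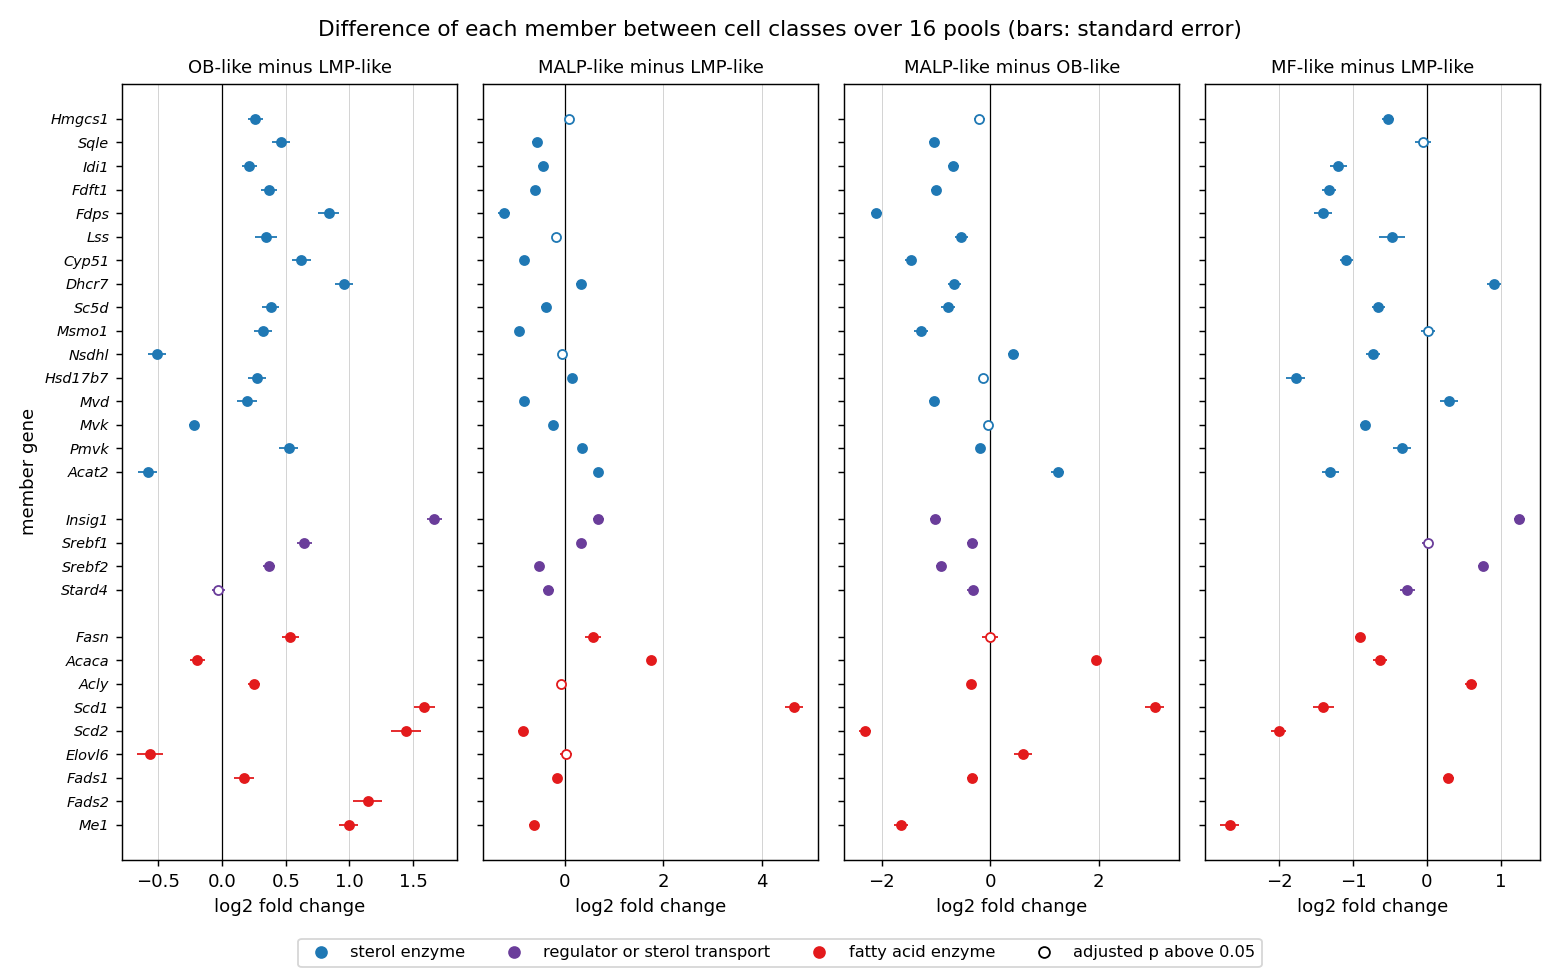
Each point is the log2 fold change of 1 member in the comparison named above the panel, over 16 pools, with its standard error; filled points have an adjusted p of at most 0.05, and each panel has its own x axis. On the TMM scale points of the OB-like panel lie mostly right of 0, those of the MALP-like and MF-like panels mostly left (with library totals 10, 5, 12 and 2 members change side in the 4 panels, from left to right), with Scd1, Acaca and Acat2 right of 0 in MALP-like cells, and members that did not pass the filter in each class by itself have no point (Fads2 in the MALP-like and MF-like panels, Elovl6 in the MF-like panel).

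MF-like cells, which are hematopoietic, had lower levels of most enzymes of both arms than LMP-like cells and higher levels of *Insig1*, *Srebf2* and *Acly*. Of 28 members tested, 6 were higher and 19 lower, with 85.5% of 11784 tested genes called, 40.4% higher and 45.2% lower. *Fads2* did not pass the filter on low counts, with 17 UMIs over all MF-like pools. The median log2 fold change was -0.69 for sterol enzymes and -1.15 for the 8 fatty acid enzymes tested, beside -0.069 over all genes. Library totals moved the median of all genes by -0.10 and changed the sign of none of the 25 called members. Ranges without overlap were found for 10 members and 36.6% of all tested genes.

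*Me1* had 15.2 CPM (7.40 to 25.2) in MF-like against 89.3 CPM (65.8 to 129) in LMP-like pools and the largest difference, -2.67 ± 0.12 (adjusted p = 2.77e-15). *Scd2* followed with -2.00 ± 0.10 (adjusted p = 5.99e-15), lower in 16 of 16 pools. *Elovl6*, counted among the lower members and among those without overlap, held 1 to 33 UMIs per MF-like and 31 to 468 per LMP-like pool. It passed the filter through LMP-like cells, and no fold is given. *Scd1*, at 18.5 CPM (7.14 to 50.1), was lower, with -1.40 ± 0.14 (adjusted p = 2.56e-09), and *Fasn*, at 13.5 CPM (7.83 to 18.1), with -0.90 ± 0.070 (adjusted p = 4.38e-11). *Acaca* was lower as well, at -0.63 ± 0.10 (adjusted p = 4.12e-06). *Acly* and *Fads1*, the delta-5 desaturase, were the exceptions, *Fads1* with 0.29 ± 0.071 (adjusted p = 7.45e-04). *Acly* stood at 39.5 CPM (29.8 to 58.5) against 27.7 CPM (19.6 to 35.8) and was higher in 16 of 16 pools, with 0.60 ± 0.082 (adjusted p = 5.01e-07). In the sterol arm *Hsd17b7*, *Fdps* and *Fdft1* fell furthest, with -1.77 ± 0.13, -1.40 ± 0.12 and -1.32 ± 0.095, each lower in every pool. *Idi1*, at 12 CPM (6.55 to 17.3), was lower, with -1.20 ± 0.12 (adjusted p = 1.97e-09), and *Hmgcs1*, at 31.9 CPM (21.2 to 39.2), with -0.52 ± 0.081 (adjusted p = 3.14e-06). The remaining lower enzymes, *Acat2*, *Cyp51*, *Mvk*, *Nsdhl*, *Sc5d*, *Lss* and *Pmvk*, lay between -1.30 and -0.34, and of these *Lss* and *Pmvk* each lost the call in 2 of 16 choices of a pool left out. *Mvd* was called higher, at 0.30 ± 0.12 (adjusted p = 0.0257), and lost the call in 3 of 16 such choices. *Dhcr7* was higher, in 16 of 16 pools, by 0.91 ± 0.10 (adjusted p = 1.09e-08), and *Sqle*, at 19.6 CPM (15.2 to 38.2), and *Msmo1* were not called, with -0.053 ± 0.11 and 0.015 ± 0.094.

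While most enzymes were lower in MF-like cells, *Insig1* and *Srebf2* were higher. *Insig1* was at 62.8 CPM (39.5 to 77) against 22.9 CPM (18.8 to 30.7), with no overlap and 1.25 ± 0.078 (adjusted p = 8.09e-13). *Srebf2* was at 43.1 CPM (32.4 to 64.2), the highest of the 4 classes, against 25.1 CPM (21.2 to 31), also with no overlap and 0.76 ± 0.060 (adjusted p = 6.29e-11). *Srebf1*, at 21.5 CPM (16.8 to 24.9), was not called (0.012 ± 0.076), and *Stard4*, at 11 CPM (5.54 to 23.4), was called at -0.26 ± 0.11 (adjusted p = 0.0270) but lost the call in 5 of 16 choices of a pool left out and with the gate without the fat cell genes, at -0.22 (adjusted p = 0.0703).

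Further genes of the pathway were taken from 2 lists, 24 genes of sterol synthesis, uptake, export and oxysterol response and 29 of fatty acid and glycerolipid metabolism. In MALP-like against LMP-like cells, the sterol list had 9 higher and 9 lower of 23 tested, and the fatty acid list 12 higher and 5 lower of 24 tested, beside 73.8% of all genes called, 37.1% higher and 36.8% lower. *Abcg1* and *Abca1*, exporters of cholesterol, and *Nr1h3*, the oxysterol receptor LXRα, led the first, with 4.47 ± 0.14, 1.94 ± 0.066 and 2.55 ± 0.052. In the second, *Pnpla2*, adipose triglyceride lipase, differed by 3.99 ± 0.12. All 4 were higher in 16 of 16 pools. Of the 12 higher genes of the second list, 3 (*Thrsp*, *Mlxipl* and *Gpam*) did not pass the filter in each class by itself, and of the 9 lower genes of the first, 1 (*Tm7sf2*) did not. *Thrsp*, a lipogenic nuclear protein, and *Mlxipl*, the carbohydrate response factor ChREBP, passed through MALP-like cells alone, so their place among the higher genes is a description and no fold is given. *Thrsp* held 28 to 1140 UMIs per MALP-like pool and 0 to 11 per LMP-like pool, and *Mlxipl* 8 to 83 and 0 to 4.

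In OB-like against LMP-like cells, the sterol list had 13 higher and 5 lower of 24 tested and the fatty acid list 8 higher and 9 lower of 22 tested, beside 40.6% and 39.6% of all genes. *Abca1* and *Insig2*, the second INSIG gene, were 1.81 ± 0.072 and 1.51 ± 0.070 higher, and *Ch25h*, cholesterol 25-hydroxylase, was -1.30 ± 0.15. *Acsl3*, an acyl-CoA synthetase, *Tecr*, an elongation reductase, and *Pnpla2* were higher by 1.02 ± 0.063, 0.95 ± 0.035 and 0.80 ± 0.042. MALP-like against OB-like cells gave 5 higher and 11 lower of 23 tested for sterol genes, with *Abcg1* at 4.56 ± 0.20 and *Nr1h3* at 3.12 ± 0.083, and 17 higher and 4 lower of 24 tested for fatty acid genes, with *Pnpla2* at 3.14 ± 0.13. Of these 17 and 11 genes, the same 3 and *Tm7sf2* did not pass the filter in each class by itself. Of all genes 39.1% were higher and 40.2% lower in that comparison. In MF-like against LMP-like cells, the sterol list had 15 higher and 5 lower of 24 tested and the fatty acid list 10 higher and 7 lower of 21 tested, beside 40.4% and 45.2% of all genes. *Abcg1*, *Abca1* and *Ch25h* were higher there by 5.30 ± 0.13, 4.49 ± 0.089 and 3.04 ± 0.18, *Pnpla2* and *Pgd*, which supplies NADPH, by 2.67 ± 0.063 and 2.34 ± 0.059, while *Fads3* was -3.81 ± 0.10. *Cyp27a1* and *Gpam*, called lower in OB-like cells, and *Cyp27a1*, higher, and *Dgat2*, lower in MF-like cells, did not pass the filter in each class by itself either.

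Pools differed among themselves within a class. The coefficient of variation of *Fasn* over 16 pools was 66.5% in MALP-like cells, against 25.7%, 21.1% and 19.7% in LMP-like, OB-like and MF-like cells. That of *Scd1* was 46.3% in MALP-like and 19.7% in OB-like cells, and that of *Hmgcs1* lay between 16.5% and 22.3% in the 4 classes. In OB-like cells *Scd2* was at 189, 245 and 258 CPM in pools 1, 2 and 6 and at 466 or more in the other 13. To ask whether members varied together, *Hmgcs1* and *Fasn* were each compared with every other member over the 16 pools of each class, on log2(CPM + 1), giving 220 relations with permutation p-values of 100000 resamples adjusted by Benjamini-Hochberg. The smallest p these can give is 1e-05. A relation is counted where both Pearson's r and Spearman's rho had an adjusted p of at most 0.05, and all 38 relations counted were positive. Over these, adjusted p ranged from 0.00165 to 0.0482, and r without the 2 pools farthest from the median of *Hmgcs1* or *Fasn* from 0.47 to 0.89.

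As a background, the share of all other genes on the same scale with a positive relation is given for each class, where both p-values, before adjustment, were no larger than the largest that passed among the members. In OB-like cells, *Hmgcs1* varied with 6 of 15 sterol enzymes, 1 of 4 regulators and 4 of 9 fatty acid enzymes, 11 of 28 members, beside 1.2% of 12842 genes. The highest Pearson's r were those of *Sqle*, with r = 0.91 and rho = 0.81 (adjusted permutation p of 0.00165 and 0.0101; r = 0.84 without the 2 pools farthest from the median), and *Cyp51*, with r = 0.89 and rho = 0.82 (adjusted permutation p of 0.00165 and 0.0101; r = 0.86 without the 2 pools farthest from the median). *Msmo1* had r = 0.84 and rho = 0.76 (adjusted permutation p of 0.00352 and 0.0124; r = 0.81 without the 2 pools farthest from the median). *Fasn* in the same cells was related to 3 of 8 fatty acid enzymes, 4 of 15 sterol enzymes and 1 of 4 regulators, beside 2.02% of genes. These were *Acaca* (r = 0.86 and rho = 0.84), *Dhcr7* (r = 0.85 and rho = 0.82), *Elovl6* (r = 0.83 and rho = 0.79), *Acly* (r = 0.78 and rho = 0.79), *Fdft1* (r = 0.77 and rho = 0.70), *Msmo1* (r = 0.73 and rho = 0.72), *Stard4* (r = 0.71 and rho = 0.66) and *Sqle* (r = 0.70 and rho = 0.67). *Hmgcs1* and *Fasn* were related to each other in OB-like cells (r = 0.74 and rho = 0.75) and not past the threshold in the other classes, a difference that was not tested.

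In MALP-like cells, *Hmgcs1* was related to 3 of 4 regulators and 1 of 15 sterol enzymes, beside 0.413% of all genes. *Srebf2* had r = 0.76 and rho = 0.79 (adjusted permutation p of 0.00820 and 0.0101; r = 0.79 without the 2 pools farthest from the median), *Stard4* r = 0.76 and rho = 0.77, *Insig1* r = 0.66 and rho = 0.66 and *Msmo1* r = 0.71 and rho = 0.67. *Fasn* was related to 4 of 8 fatty acid enzymes and to *Srebf1*, *Sqle* and *Dhcr7*, beside 0.973% of all genes. Its relation with *Acly* had r = 0.79 and rho = 0.71 (adjusted permutation p of 0.00569 and 0.0252; r = 0.64 without the 2 pools farthest from the median), that with *Srebf1* r = 0.77 and rho = 0.73 (adjusted permutation p of 0.00569 and 0.0171; r = 0.59 without the 2 pools farthest from the median), and that with *Scd1* r = 0.77 and rho = 0.74 (adjusted permutation p of 0.00614 and 0.0152; r = 0.67 without the 2 pools farthest from the median). The 2 pools left out for *Fasn* are 17, the pool with the high free RNA share, and 18, and *Me1* and *Acaca* kept r = 0.62 and 0.62 without them. *Fasn* against *Srebf1* was not past the threshold in LMP-like (r = -0.12 and rho = -0.12), OB-like (r = -0.036 and rho = 0.056) or MF-like pools (r = 0.28 and rho = 0.37).

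In LMP-like cells *Fasn* went with *Elovl6* (r = 0.86 and rho = 0.79), *Acaca* (r = 0.82 and rho = 0.87), *Acly* (r = 0.80 and rho = 0.74) and *Acat2* (r = 0.68 and rho = 0.65), and *Hmgcs1* with *Msmo1* alone (r = 0.67 and rho = 0.64). The shares of all genes were 6.56% for *Fasn* and 0.28% for *Hmgcs1*. MF-like cells gave 3 relations, of *Hmgcs1* with *Stard4* (r = 0.77 and rho = 0.78), *Acly* (r = 0.64 and rho = 0.71) and *Mvd* (r = 0.62 and rho = 0.64), and none of *Fasn*, beside 2.27% and 1% of all genes. Of the other 2 members with TCACNCCA, *Msmo1* was related to *Hmgcs1* in 3 of 4 classes, all but MF-like cells, and *Srebf2* in 1 of 4, MALP-like cells. Members without TCACNCCA in their window were related to *Hmgcs1* too, such as *Cyp51* in OB-like and *Insig1* in MALP-like cells. The part of the motif was not tested. The points of a relation share their library, its scaling and its mix of cells within the class. Median UMIs per cell of the class had r between 0.087 and 0.30 with *Hmgcs1* and between -0.48 and -0.052 with *Fasn* over the 4 classes, the strongest in LMP-like cells for *Fasn* (rho = -0.47, permutation p = 0.0569 for r). The summed level of 5 cycling markers ranged from 60.5 to 340.3 CPM over MALP-like, 157 to 763 over LMP-like, 23.1 to 323 over OB-like and 72.5 to 384 over MF-like pools, and its part in these results was not tested.

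**Figure D4:**
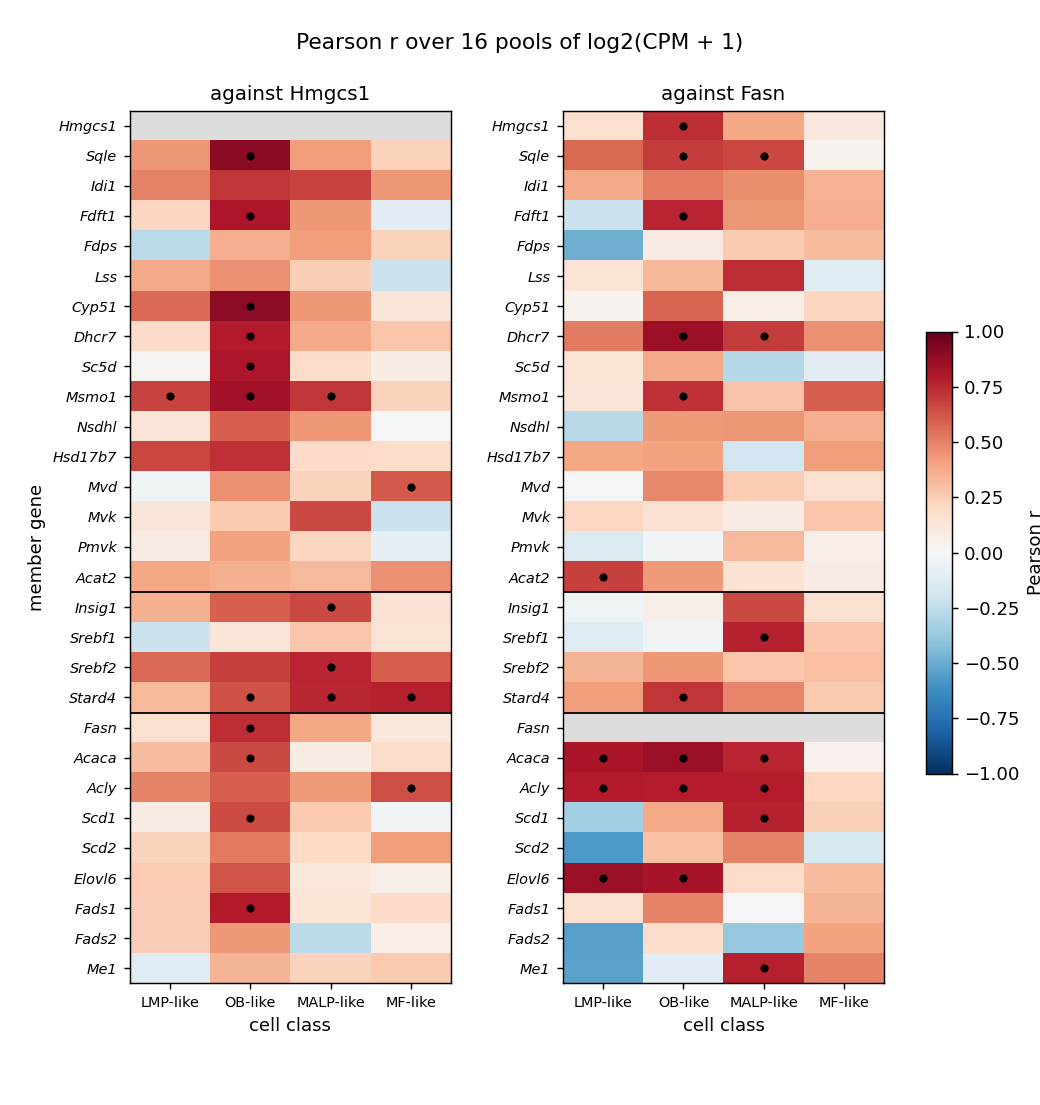
Colour gives Pearson's r over 16 pools between each member and Hmgcs1 (left) or Fasn (right) in each cell class, and a black dot marks relations whose r and rho both had an adjusted permutation p of at most 0.05. Dots are most frequent in the OB-like column, and Fasn with Acaca and Acly carries a dot in 3 of 4 classes.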

How the data were processed

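The deposited files hold UMI counts per gene and barcode, which the authors made with Cell Ranger 5.0.0 on GRCm38 (mm10), as the submitters' processing notes name them. They precede the authors' doublet removal and cell filters. Barcodes with 400 to 6200 detected genes and at most 10% mitochondrial, 20% Rpl and 15% Rps UMIs were kept (the study's limits, taken here as detected genes). A class score was the mean of marker levels (log-scaled UMIs per 10000, divided by their 99th percentile), and at least 4 markers had to be detected. These score limits were set after the distributions of the markers, not of the members, were seen. Raw counts were summed per pool and class, with at least 20 cells, and filtered by filterByExpr. They were then tested in edgeR 4.0.16 (R 4.3.3) with TMM scaling and the pool as a term. Classes of a pool share mice and library, though the share of each mouse can differ between classes. Deviations of the classes compared correlated within every pool (lowest r = 0.11, other pools' median between -0.027 and -0.015). Pools are separate groups of mice. On simulated counts in which only 200 genes were changed, by 1 on the log2 scale, 98% to 99.5% of these were recovered. In the data most genes were called, so the simulation does not bear on that setting or on the scaling.

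All 29 members could be named. Values over pools were given for 12 of them and, in each comparison, for the 3 called members of each arm with the largest fold change, and for the 3 called genes of each further list, of which some are not reported here. The members and lists were chosen with earlier results of these data known. Total UMIs per pool ranged from 53990642 to 100777353. Alternatives were DESeq2 1.42.0, library totals, upper-quartile scaling, no filter, no block, a minimum of 50 cells, 1 fit of 4 classes, the second run, limits of 400 and 6200 on UMIs, a stricter gate (score 0.55, lead 0.3), a gate without *Adipoq*, *Lpl* and *Fabp4*, removal of the 5% deepest droplets, free RNA subtraction, and each pool left out. Free RNA was estimated from macrophage markers, and in MF-like cells from osteoblast markers. The profile subtracted was that of all barcodes of the pool, so it holds RNA of cells. In the annotation *Fdps* overlaps *Gm43738* on the same strand, and *Fdft1*, *Cyp51*, *Mvd*, *Srebf1* and *Acaca* overlap *Ctsb*, *Akap9*, *Gm20388*, *Rai1* and *Gm11437* on the other strand. Counts of these, and of the similar genes *Scd1* and *Scd2*, are uncertain where reads could be split.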

Additional observations from a re-analysis of the deposited data

How the results depend on the processing

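Counts of members called depended on the scaling. With library totals, 14 members were higher in MALP-like than in LMP-like cells, 10 were higher and 10 lower in OB-like than in LMP-like cells, and 14 were higher and 11 lower in MALP-like than in OB-like cells. Of all tested genes, 79.7%, 84.3% and 90.1% were called in these 3 comparisons, and 74.1%, 24.3% and 81.3% of those calls were higher. Limits on UMI counts, which left 16349 cells and 4232 to 7397 tested genes, gave 3 higher and 2 lower for MALP-like against LMP-like, 6 and 0 for OB-like against LMP-like, 3 and 6 for MALP-like against OB-like, and 2 and 11 for MF-like against LMP-like cells, with 2212, 2026, 3305 and 5287 genes called in all against 8761, 10159, 9793 and 10078. Under every other alternative run, the counts of members stayed within 1.5 times the values given. Without the replicate block, 9, 20, 5 and 6 members were higher and 14, 5, 19 and 17 lower in the same order. Of all tested genes, 67.3%, 71.2%, 75.5% and 82.6% were called in that setting. The relations of *Hmgcs1* and *Fasn* past both tests numbered 26 and 28 with library totals and 16 and 16 in the second run, against 19 and 19. In DESeq2, log2 fold changes of the opposite sign were found in MF-like against LMP-like cells for *Msmo1* (-0.035), *Srebf1* (-0.032). With the gate without fat cell genes, log2 fold changes of the opposite sign were found in MALP-like against LMP-like cells for *Hmgcs1* (-0.054), *Fasn* (-0.19). In 1 fit of all 4 classes, log2 fold changes of the opposite sign were found in MALP-like against OB-like cells for *Fasn* (0.046), and in MF-like against LMP-like cells for *Sqle* (0.038), and in OB-like against LMP-like cells for *Stard4* (0.012). With limits on UMI counts, log2 fold changes of the opposite sign were found in MALP-like against LMP-like cells for *Hmgcs1* (-0.0013), *Insig1* (-0.11), *Fads1* (0.10), and in MALP-like against OB-like cells for *Pmvk* (0.067), *Fads1* (0.14), and in MF-like against LMP-like cells for *Sqle* (0.046), *Srebf1* (-0.31), and in OB-like against LMP-like cells for *Hmgcs1* (-0.017), *Fads1* (-0.14). After free RNA subtraction, log2 fold changes of the opposite sign were found in MF-like against LMP-like cells for *Msmo1* (-0.0050). With library totals, log2 fold changes of the opposite sign were found in MALP-like against LMP-like cells for *Lss* (0.11), *Nsdhl* (0.22), *Mvk* (0.043), *Acly* (0.21), *Fads1* (0.14), and in MALP-like against OB-like cells for *Hmgcs1* (0.49), *Idi1* (0.0044), *Lss* (0.15), *Dhcr7* (0.028), *Hsd17b7* (0.55), *Mvk* (0.65), *Pmvk* (0.49), *Srebf1* (0.36), *Stard4* (0.37), *Fasn* (0.69), *Acly* (0.34), *Fads1* (0.36), and in MF-like against LMP-like cells for *Msmo1* (-0.081), *Srebf1* (-0.085), and in OB-like against LMP-like cells for *Hmgcs1* (-0.12), *Idi1* (-0.17), *Fdft1* (-0.011), *Lss* (-0.031), *Msmo1* (-0.057), *Hsd17b7* (-0.11), *Mvd* (-0.18), *Srebf2* (-0.010), *Acly* (-0.13), *Fads1* (-0.20). Without the filter on low counts, log2 fold changes of the opposite sign were found in MF-like against LMP-like cells for *Msmo1* (-0.038), *Srebf1* (-0.041). Without the replicate block, log2 fold changes of the opposite sign were found in MALP-like against OB-like cells for *Fasn* (0.17), and in MF-like against LMP-like cells for *Srebf1* (-0.0024). In the second run, log2 fold changes of the opposite sign were found in OB-like against LMP-like cells for *Stard4* (0.054). With the stricter gate, log2 fold changes of the opposite sign were found in MF-like against LMP-like cells for *Srebf1* (-0.086). With upper-quartile scaling, log2 fold changes of the opposite sign were found in MALP-like against OB-like cells for *Mvk* (0.063), *Fasn* (0.10), and in MF-like against LMP-like cells for *Msmo1* (-0.15), *Srebf1* (-0.16). Without the 5% deepest droplets, log2 fold changes of the opposite sign were found in MALP-like against LMP-like cells for *Elovl6* (-0.028), and in MF-like against LMP-like cells for *Sqle* (0.0058). With 1 pool left out, signs changed for *Elovl6* (MALP-like against LMP-like, -0.034 to 0.10), *Fasn* (MALP-like against OB-like, -0.10 to 0.064), *Msmo1* (MF-like against LMP-like, -0.040 to 0.092), *Sqle* (MF-like against LMP-like, -0.13 to 0.034) and *Srebf1* (MF-like against LMP-like, -0.019 to 0.092), none of which was called. The cause of these changes was not tested.

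Free RNA, the marker limits and unequal depth bound what these sums can show. The sums mix mice within a pool. Low members such as *Fads2*, with 53 UMIs over all MALP-like and 17 over all MF-like pools, rest on few UMIs, which limits what can be said of them there. In single MF-like pools, members called lower also held few UMIs, such as *Acat2*, *Acaca*, *Hsd17b7* and *Fdps* with minima of 4, 5, 6 and 8.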
